A study of Mus musculus with 6 samples.

Results

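The genes described are the nuclear genes named for subunits of the 5 complexes of oxidative phosphorylation. They were chosen by symbol: names that begin with Nduf, Uqcr or Atp5, the genes Sdha to Sdhd, and names that begin with Cox4 to Cox8. The rule selected 96 protein-coding genes in the RefSeq annotation, of which 81 were measured, among 15302 measured genes in all. Complex I had 40 measured members, complex II 4, complex III 7, complex IV 18 and complex V 12. The other 15 genes were not analysed here: Atp5c1, Atp5g2, Atp5h, Atp5l, Atp5md, Cox7b, Cox7c, Ndufa11, Ndufab1, Ndufaf2, Ndufb1, Ndufb4, Ndufb4b, Ndufb4c and Uqcrb. The naming rule also takes in 7 assembly factors of complex I (the Ndufaf genes), which are not part of the finished enzyme, and it takes in none of the subunits encoded by mitochondrial DNA.

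Expression was measured on 6 arrays, 1 per sample, of mouse neural progenitor cells made from embryonic stem (ES) cells. All cells carried GFP in the Sox1 locus, a marker of neural progenitors, and 3 samples also carried a Sox3 transgene under the Nestin promoter (genotype Sox1-GFP and Nestin-Sox3), which is active in neural progenitors. The 3 control samples had no such transgene. Every culture was differentiated as a monolayer in medium with N2 and B27 and with retinoic acid, and after 4 days the cells were sorted by FACS. The samples are labelled as biological replicates, but the labels do not say whether a genotype was 1 ES cell clone or several, so a difference between clones and one between genotypes cannot be told apart.

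Oxidative phosphorylation takes place in the inner mitochondrial membrane. Complex I oxidises NADH and complex II oxidises succinate, both pass electrons through ubiquinone to complex III, and cytochrome c carries them on to complex IV, which reduces oxygen. Complexes I, III and IV pump protons, and complex V, the ATP synthase, uses the returning protons to make ATP. Each complex has a catalytic core and, in mammals, many small accessory subunits, and several complex IV subunits exist as isoforms of heart and muscle, lung or testis.

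The targeted gene followed the labels. Sox3, a SoxB1 transcription factor, read 9.20, 9.23 and 9.22 on the Sox3 arrays and 7.59, 7.52 and 7.25 on the control arrays (log2 signal), a difference of 1.76 ± 0.08 (SE, limma adjusted p = 0.000189). Array medians lay between 6.85 and 6.87. The interquartile range of log2 signal was 2.89 to 2.98 on the Sox3 arrays and 3.00 to 3.17 on the control arrays, so the groups did not overlap in spread. The 3′ minus 5′ log2 signal of the array's control probes, a sign of RNA integrity, was 0.63 to 0.67 in Sox3 and 0.72 to 0.75 in control samples for the transferrin receptor, 1.02 to 1.30 and 1.33 to 1.39 for beta-actin, and 0.98 to 1.16 and 0.96 to 0.99 for Gapdh. Of the 7 measured neural progenitor markers, Sox2 was lower in Sox3 cells (-0.37, limma adjusted p = 0.0241) and none was called higher. Above 0 lay 4 of the 7, the highest being Fabp7 (0.77, limma adjusted p = 0.0741). At an unadjusted p under 0.05, 2 were lower and 2 higher. Of 8 endoderm markers 4 were lower (Cubn, Foxa2, Afp and Ttr, at -0.999 to -0.290), with a summed log2 signal of 10.88 to 11.12 in Sox3 and 11.04 to 11.45 in control samples. The other endoderm markers were Dab2 (-0.44), Sox17 (0.08), Gata4 (0.26) and Gata6 (0.35). None of these was called, and all but Sox17 had an unadjusted p under 0.05. None of 8 neuron or 7 pluripotency markers passed the test in limma (2 lower, and 1 lower and 1 higher, at an unadjusted p under 0.05), and the summed neuron signal was 10.3 to 10.4 against 10.6 to 10.7. The values carry no detection call, so the absence of a marker cannot be read from them. The part of these properties in the differences below was not tested.

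Most of the 81 genes had a slightly lower mean signal in Sox3 cells than in control cells. The difference, Sox3 minus control on the log2 scale, was below 0 for 69 genes and above 0 for 12, with a median of -0.12 and a range of -0.46 to 0.17. In limma, 5 genes fell at an adjusted p under 0.05: Ndufa7 and Ndufv3 of complex I, Uqcr10 and Uqcr11 of complex III, and Cox7a2l, a factor that joins complexes III and IV. None rose, and 76 did not pass the test. Over all measured genes 2.67% (408) were called lower and 1.27% (195) higher, while quantile normalisation gave 393 lower and 297 higher calls and cyclic loess 353 and 283. At an unadjusted p under 0.05 there were 34 members below 0 and 1 above. Of all 15302 genes 2320 were below and 1329 above, 23.8% in either direction. Of the 2997 other genes in the top 2 deciles of mean signal, 854 were below and 161 above. In 41 of the 81 genes (50.6%) all 3 Sox3 arrays lay below all 3 control arrays, which held for 18.3% of all genes. In 3 genes (Sdhd, Cox8c and Cox6a2) all Sox3 arrays lay above, which held for 13.1% of all genes, and in the other 37 the groups overlapped. In bulk RNA of this kind, fewer cells of a type and less RNA per cell cannot be told apart.

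**Figure D1:**
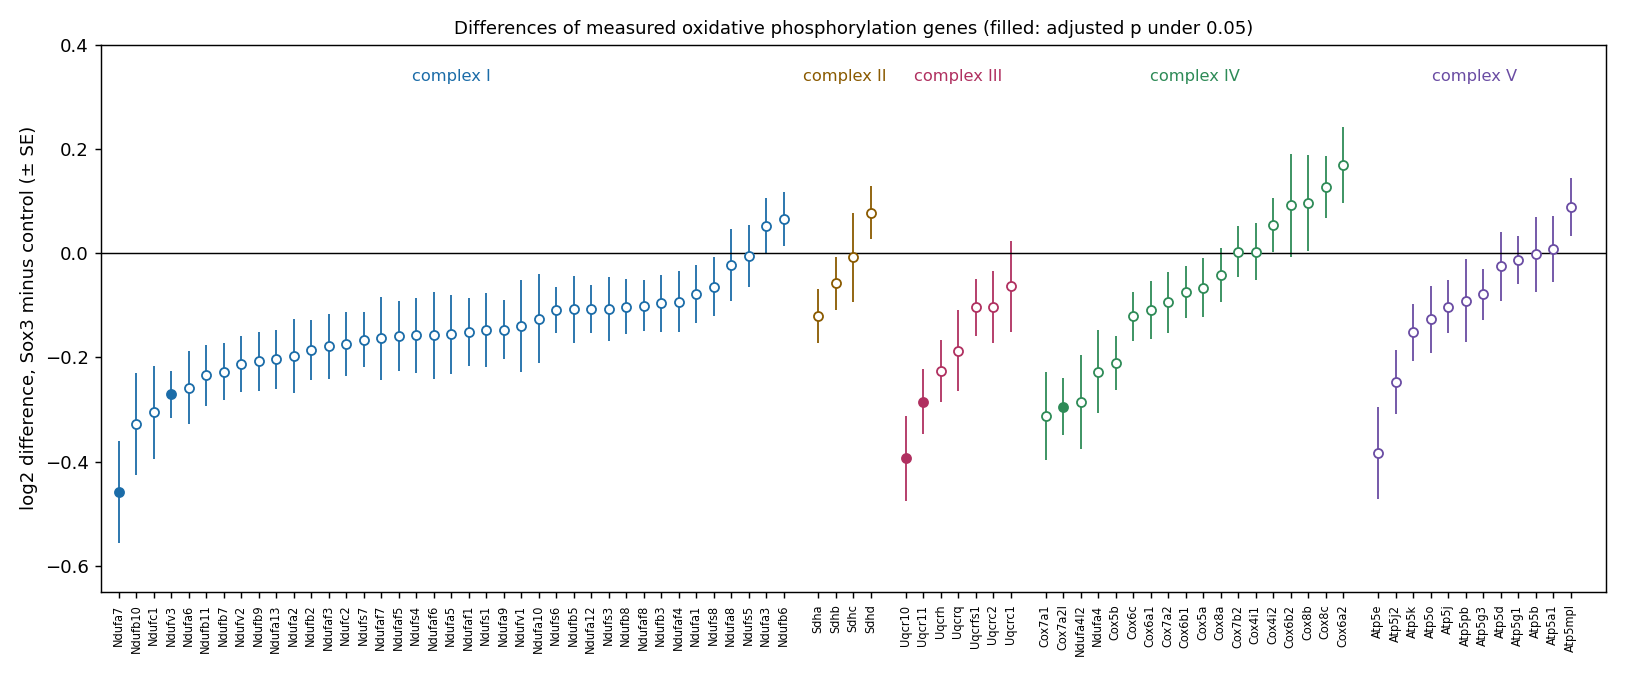
Log2 difference (Sox3 minus control) with limma's SE for 80 of the 81 measured genes, ordered within each complex; filled points passed an adjusted p under 0.05. The 5 filled points all lie below 0, and complexes I and III lie almost wholly below 0, while complex IV extends from -0.31 to 0.17.

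The upstream sequences of the 5 genes that fell are shown with that of Atp5b, the beta subunit of complex V, whose signal was nearly equal in the 2 groups. Each is the 250 bases before the first listed start of the gene in RefSeq (GRCm38.p6), 5′ to 3′ on the gene's strand. The regions are chr17:33824322-33824571 (+) for Ndufa7, chr17:31519865-31520114 (+) for Ndufv3, chr11:4704345-4704594 (-) for Uqcr10, chr10:80406822-80407071 (-) for Uqcr11, chr17:83514334-83514583 (-) for Cox7a2l and chr10:128083057-128083306 (+) for Atp5b. Capitals mark letters that match, on either strand, one of 5 motifs. The first is the GC-rich palindromic consensus of NRF1, a factor known for respiratory chain promoters. For ETS factors such as GABP the letters searched were CCGGAAG. For YY1 they were AAGATGGC, a motif known near transcription starts. The TATA box was searched as TATAAA. The fifth motif is the CCAAT box, by those letters.
Ndufa7: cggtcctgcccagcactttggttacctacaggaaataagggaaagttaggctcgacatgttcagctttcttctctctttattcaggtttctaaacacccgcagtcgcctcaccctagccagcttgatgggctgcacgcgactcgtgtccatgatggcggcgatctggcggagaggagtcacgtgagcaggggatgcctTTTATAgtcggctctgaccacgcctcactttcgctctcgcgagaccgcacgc
Ndufv3: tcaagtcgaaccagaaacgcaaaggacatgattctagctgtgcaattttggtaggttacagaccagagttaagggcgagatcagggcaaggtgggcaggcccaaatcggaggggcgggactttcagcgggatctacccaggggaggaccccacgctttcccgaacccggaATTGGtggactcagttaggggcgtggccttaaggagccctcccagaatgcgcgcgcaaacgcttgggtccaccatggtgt
Uqcr10: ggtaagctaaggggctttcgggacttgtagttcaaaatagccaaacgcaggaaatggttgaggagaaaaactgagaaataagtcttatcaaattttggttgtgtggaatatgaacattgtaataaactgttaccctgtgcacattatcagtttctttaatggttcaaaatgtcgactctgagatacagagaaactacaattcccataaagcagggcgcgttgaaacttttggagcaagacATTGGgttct
Uqcr11: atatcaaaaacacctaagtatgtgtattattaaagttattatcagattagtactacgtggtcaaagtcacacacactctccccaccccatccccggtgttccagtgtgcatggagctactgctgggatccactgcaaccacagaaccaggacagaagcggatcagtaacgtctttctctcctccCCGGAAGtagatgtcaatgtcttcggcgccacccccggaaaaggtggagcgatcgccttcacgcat
Cox7a2l: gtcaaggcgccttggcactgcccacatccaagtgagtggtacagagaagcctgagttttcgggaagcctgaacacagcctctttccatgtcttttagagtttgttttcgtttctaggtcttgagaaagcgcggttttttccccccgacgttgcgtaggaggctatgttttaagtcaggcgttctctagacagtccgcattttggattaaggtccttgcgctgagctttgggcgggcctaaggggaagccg
Atp5b: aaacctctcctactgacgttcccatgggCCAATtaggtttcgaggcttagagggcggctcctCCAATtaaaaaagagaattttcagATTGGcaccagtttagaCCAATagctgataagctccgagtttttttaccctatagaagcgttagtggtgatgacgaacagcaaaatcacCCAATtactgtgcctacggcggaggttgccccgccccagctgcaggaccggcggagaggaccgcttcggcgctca

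The printed windows hold different motifs. Ndufa7 has a TATA match and Ndufv3 and Uqcr10 each have a CCAAT match, all 3 on the reverse strand, Uqcr11 has an ETS match, Cox7a2l has none of the 5, and Atp5b has 5 CCAAT matches, 1 of them on the reverse strand. No match in these windows overlapped another. A window was listed for 65 of the 81 genes and for 12114 measured genes. The NRF1 consensus stood in 9 of the 65 windows (13.8%) and in 6.51% of the windows of all measured genes. ETS letters stood in 11 (16.9% against 10.9%), CCAAT in 27 (41.5% against 36%), TATA in 5 (7.69% against 9%) and YY1 in 0 (against 1.69%). None of the 5 genes that fell has the NRF1 consensus in its window, which says only that these letters are not there.

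Complex I, the NADH dehydrogenase, lay below 0 almost throughout. Its median difference was -0.15, and 38 of its 40 genes were below 0. In 22 (55%) all Sox3 arrays lay below all control arrays. This held for 18.3% of all genes and for 32.5% of the other bright genes (non-members in the top 2 deciles of mean signal). Of the members, 2 fell (5%), against 2.67% of all genes and 4.44% of the other bright genes. These shares stand beside the counts of every complex and class below. Ndufa7, an accessory subunit of the matrix arm, read 8.55, 8.73 and 8.56 on Sox3 arrays 1 to 3 and 8.98, 8.94 and 9.29 on control arrays 1 to 3. The groups do not overlap, and control replicate 3 is the highest array. The difference was -0.46 ± 0.10 (SE), the lowest of all 81 genes, or 1.37-fold lower (limma adjusted p = 0.0461). Ndufv3, an accessory subunit of the NADH-binding module, read 11.38, 11.40 and 11.33 in Sox3 cells and 11.64, 11.62 and 11.66 in control cells. Its 6 arrays lie close together within each group and do not overlap. The difference was -0.27 ± 0.05 (SE), or 1.21-fold lower (limma adjusted p = 0.0226).

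Of the classes of complex I, the matrix-arm accessory subunits had the highest share of genes without overlap between the groups. All 9 were below 0, all 9 lay below the median of genes of their own signal decile, and in 8 of 9 the groups did not overlap, Ndufa5 being the exception. Their median was -0.16. The 17 membrane-arm accessory subunits had a median of -0.13 and non-overlapping groups in 9. Ndufb10 read 9.74, 9.99 and 9.67 against 10.06, 10.03 and 10.29, a difference of -0.33 ± 0.10 (SE, limma adjusted p = 0.104), and Ndufc1 was at -0.31 (limma adjusted p = 0.1001). In both, control replicate 3 was the highest array and Sox3 replicate 3 the lowest. Ndufb6 (0.07) and Ndufa3 (0.05) were the only complex I genes above 0, and in both the groups overlapped. Ndufa1, the complex I gene with the highest mean signal, was at -0.08.

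The 7 core subunits measured carry the flavin and the iron-sulfur clusters or hold the ubiquinone site, and none passed the test in limma (2 below 0 at an unadjusted p under 0.05). All were below 0, with a median of -0.14. Ndufv2, which holds an iron-sulfur cluster next to the NADH site, read 12.27, 12.34 and 12.23 against 12.46, 12.45 and 12.55, a difference of -0.21 ± 0.05 (SE, limma adjusted p = 0.0696). Its groups did not overlap, nor did those of Ndufs7 (-0.17, limma adjusted p = 0.122), a subunit at the ubiquinone site. The flavin subunit Ndufv1 (-0.14), the large iron-sulfur subunit Ndufs1 (-0.15), and Ndufs3 (-0.11) and Ndufs8 (-0.06) of the ubiquinone module had overlapping groups. Sox3 replicate 1 was the lowest array for 6 of the 7 core genes, and the core median was -0.07 without it. The 7 Ndufaf assembly factors were all below 0, with a range of -0.18 to -0.09, a median of -0.16, overlapping groups in 4 and no call in limma (3 at an unadjusted p under 0.05). Their median was -0.09 without Sox3 replicate 1 and -0.09 without control replicate 3.

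Complex II, succinate dehydrogenase, showed no common direction. Sdha, the flavin subunit that oxidises succinate, read 11.84, 11.92 and 11.96 in Sox3 cells and 12.04, 11.99 and 12.06 in control cells. All Sox3 arrays lay below the control arrays, but by little, and the difference of -0.12 ± 0.05 (SE) did not pass (limma adjusted p = 0.217). Sdhd, a membrane anchor, was above in all 3 Sox3 arrays, also by little, at 11.25, 11.23 and 11.33 against 11.15, 11.22 and 11.22. The difference was 0.08 ± 0.05 (SE, limma adjusted p = 0.387). Sdhb, the iron-sulfur subunit (-0.06), and Sdhc, the other anchor (-0.0079), had overlapping groups. The median of the 4 was -0.03, and it was 0.02 without Sox3 replicate 1, which was the lowest array for 3 of them.

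Complex III, the cytochrome bc1 complex, had a median of -0.19, the lowest of the 5 complexes except with array weights, where complex I was at -0.103 and complex III at -0.095. All 7 measured genes were below 0, and in 5 (71.4%, against 32.5% of the other bright genes) the groups did not overlap. The 2 that fell encode small membrane subunits. Uqcr10 read 10.65, 10.93 and 10.62 in Sox3 cells and 11.12, 11.16 and 11.10 in control cells. The control arrays lie close together, and Sox3 replicate 2 lies between them and the other Sox3 arrays. The difference was -0.39 ± 0.08 (SE), or 1.31-fold lower (limma adjusted p = 0.0427). Uqcr11 read 11.83, 11.97 and 11.84 against 12.20, 12.08 and 12.22, a difference of -0.29 ± 0.06 (SE), or 1.22-fold lower (limma adjusted p = 0.0495). Its groups do not overlap, with the gap set by Sox3 replicate 2 and control replicate 2. Uqcrh, the hinge protein at the cytochrome c side, was at -0.23 (limma adjusted p = 0.0782) and Uqcrq at -0.19 (limma adjusted p = 0.201), both without overlap. The Rieske iron-sulfur protein Uqcrfs1 was at -0.10, and the large core proteins Uqcrc2 and Uqcrc1 at -0.10 and -0.06. Without control replicate 3 the median of complex III was -0.11, and without both that array and Sox3 replicate 1 complexes III and I were nearly equal, at -0.086 and -0.085.

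Complex IV, cytochrome c oxidase, held genes on both sides of 0. The 9 subunits of wide expression had a median of -0.09, 8 of them below 0, and none passed the test in limma (3 below 0 at an unadjusted p under 0.05). Cox5b, a subunit on the matrix side, read 12.58, 12.60 and 12.70 against 12.80, 12.85 and 12.86, without overlap, a difference of -0.21 ± 0.05 (SE, limma adjusted p = 0.0669). Ndufa4, once assigned to complex I and now known as a complex IV subunit, was at -0.23 (limma adjusted p = 0.142). Cox4i1, an early-assembling subunit, read 13.37, 13.46 and 13.53 in Sox3 cells and 13.46, 13.47 and 13.42 in control cells. Its Sox3 arrays lie on both sides of the control arrays, and the difference was 0.0030 ± 0.06 (SE, limma adjusted p = 0.977). The median of all 18 complex IV genes was -0.071, and -0.047 without control replicate 3. In 8 of the 18 (44.4%, against 32.5% of the other bright genes) all Sox3 arrays lay below all control arrays. In 2 all Sox3 arrays lay above. Cox6a1, the complex IV gene with the highest mean signal, was at -0.11, Cox7a2 at -0.09, Cox6b1 at -0.07 and Cox8a at -0.04.

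Cox7a2l, which resembles Cox7a2 and is known as an assembly factor of supercomplexes of complexes III and IV, was the complex IV gene that fell. It read 10.38, 10.54 and 10.45 in Sox3 cells and 10.79, 10.71 and 10.75 in control cells. No arrays overlap, and no array stands apart from its group. The difference was -0.29 ± 0.06 (SE), or 1.23-fold lower (limma adjusted p = 0.0325).

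Among the 8 isoforms of restricted expression 2 were below 0 and 6 above, with a median of 0.07. None passed the test in limma (2 below 0 and 1 above at an unadjusted p under 0.05). Cox7a1, the heart and muscle isoform of Cox7a2, read 7.23, 7.23 and 7.20 in Sox3 cells and 7.64, 7.33 and 7.63 in control cells, a difference of -0.31 ± 0.08 (SE, limma adjusted p = 0.0825). Its groups do not overlap, and control replicate 2 lies nearest to the Sox3 arrays. Ndufa4l2, a hypoxia-induced relative of Ndufa4, was at -0.29 (limma adjusted p = 0.116). On the other side were the muscle isoforms Cox6a2 (0.17, limma adjusted p = 0.213) and Cox8b (0.10), the testis isoforms Cox8c (0.13, limma adjusted p = 0.254), Cox6b2 (0.09) and Cox7b2 (0.0029), and the lung isoform Cox4i2 (0.05). Cox6a2 and Cox8c were higher on every Sox3 array than on every control array. Control replicate 3 was the lowest of the 6 arrays for Cox6a2, Cox8b, Cox8c, Cox7b2 and Cox4i2. All 8 isoforms were dimmer than the top 2 deciles of mean signal. Their median distance from the median of genes of the same signal decile was 0.04. For the 9 subunits of wide expression it was -0.02. None of 8 striated and cardiac muscle markers passed the test in limma (1 lower and 1 higher at an unadjusted p under 0.05), with a summed log2 signal of 9.49 to 9.55 in Sox3 and 9.41 to 9.53 in control samples. Of 7 germ cell markers only Sycp3 was called, lower in Sox3 cells, and the summed signal was 9.86 to 9.94 against 9.93 to 10.3. Their part in the isoform values was not tested.

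Complex V, the ATP synthase, had a median of -0.08 with 10 of 12 genes below 0 and no call. The groups did not overlap in 5 (41.7%, against 32.5% of the other bright genes). At an unadjusted p under 0.05, 3 genes were below 0. Among the measured genes of the catalytic head and central stalk of complex V, Atp5a1, Atp5b and Atp5d lay near 0. Atp5d was at -0.03 (limma adjusted p = 0.829), with overlapping groups. Atp5e lay lower but did not pass the test. Atp5a1, the alpha subunit, read 13.21, 13.33 and 13.44 in Sox3 cells and 13.32 on all 3 control arrays, a difference of 0.0080 ± 0.06 (SE, limma adjusted p = 0.946). Atp5b, the catalytic beta subunit, read 13.54, 13.68 and 13.82 against 13.72, 13.68 and 13.66, a difference of -0.0026 ± 0.07 (SE, limma adjusted p = 0.985). In both, Sox3 replicate 1 was the lowest and Sox3 replicate 3 the highest of the 6 arrays. Atp5e, the small epsilon subunit of the central stalk, read 10.40, 10.54 and 10.30 against 10.76, 10.67 and 10.96, with no overlap. Its difference of -0.38 ± 0.09 (SE) missed the threshold (limma adjusted p = 0.0552).

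Of the membrane part of complex V, Atp5j2 (the f subunit) was at -0.25 (limma adjusted p = 0.0670) and Atp5k (the e subunit) at -0.15, both without overlap, and Atp5mpl, a small proteolipid, at 0.09, the highest of the complex. The stalk subunits Atp5o, Atp5j and Atp5pb lay between -0.13 and -0.09. Of the genes that encode the same c-ring protein, Atp5g3 was at -0.08 and Atp5g1, near the lower end of the signal range on every array, at -0.01.

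**Figure D2:**
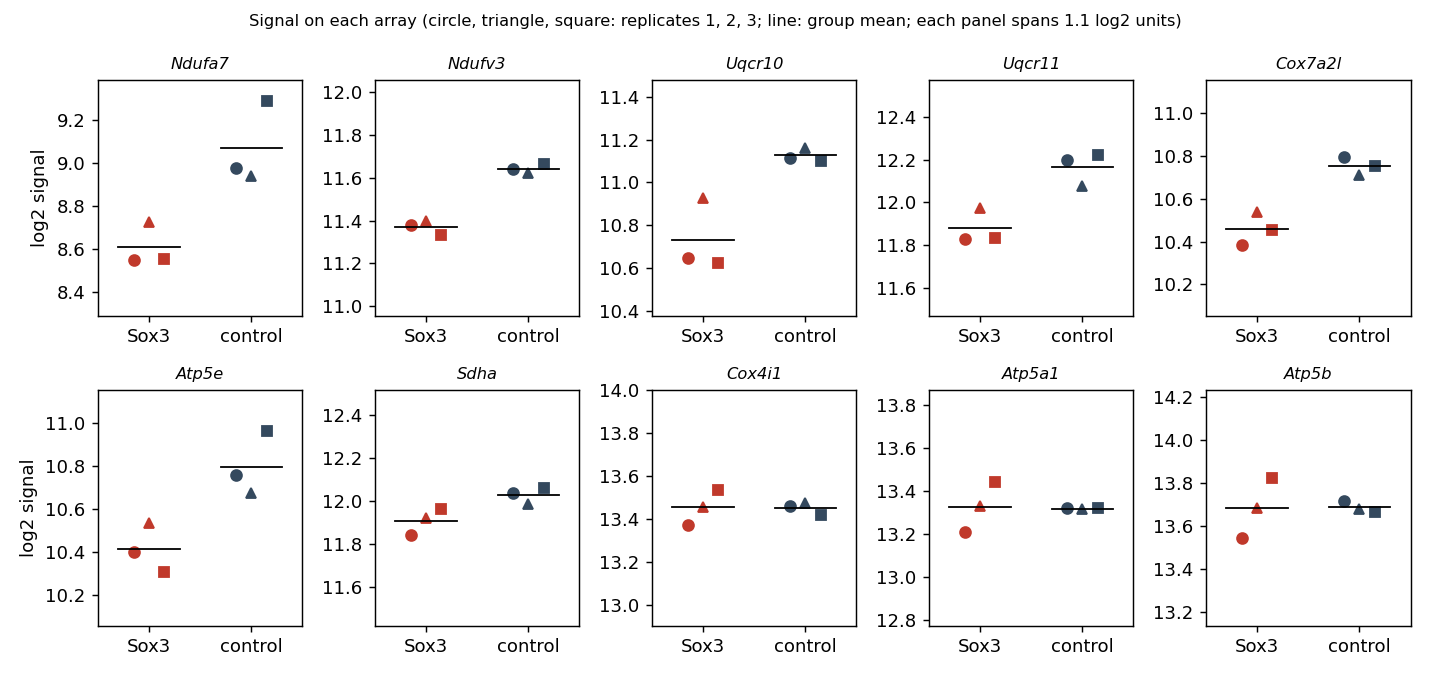
Log2 signal on each array for 10 genes, with replicates 1, 2 and 3 as circle, triangle and square and a line at each group mean; every panel spans the same range. The 5 genes that fell and Atp5e and Sdha show no overlap between groups, while in Cox4i1, Atp5a1 and Atp5b the Sox3 arrays lie on both sides of the control arrays.

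The 5 calls rested on all 6 arrays. Leaving out 1 array in turn left 0 calls where the array was Sox3 replicate 1, control replicate 1 or Sox3 replicate 3 (limma, with 20, 32 and 34 members at an unadjusted p under 0.05). Uqcr10 was the only call without Sox3 replicate 2, Cox7a1 the only one without control replicate 2, and Ndufa7 and Ndufv3 the calls without control replicate 3. Over these 6 fits the differences of the 5 genes stayed below 0, with limma adjusted p up to 0.160 for Ndufa7, 0.0854 for Ndufv3, 0.149 for Uqcr10, 0.167 for Uqcr11 and 0.113 for Cox7a2l.

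The differences of all genes followed signal level, and these genes are bright. Of the 81, 64 lay in the top 2 deciles of mean signal and 59 in the top decile. Over all measured genes the median difference was 5e-05, but decile medians lay between 0.02 and 0.05 in the 5 dimmer deciles and between -0.08 and -0.02 in the 5 brighter ones. The 64 bright oxidative phosphorylation genes had a median of -0.12, with 4 called lower (6.25%) and 36 (56.2%) without overlap below the controls. The other 2997 genes of the top 2 deciles had a median of -0.08, with 133 called lower (4.44%), 52 called higher and 975 (32.5%) without overlap. The median of these other genes was -0.049 without Sox3 replicate 1 and -0.045 without control replicate 3. With all 6 arrays, the gap between the medians of the bright members and of the other bright genes was -0.044. Set against the median of its own decile, 59 of the 81 genes lay below it. By complex, the median distance from the decile median was -0.08 for complex I, 0.04 for complex II, -0.11 for complex III, -0.01 for complex IV and -0.02 for complex V. These are descriptions of the lists, with no test.

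**Figure D3:**
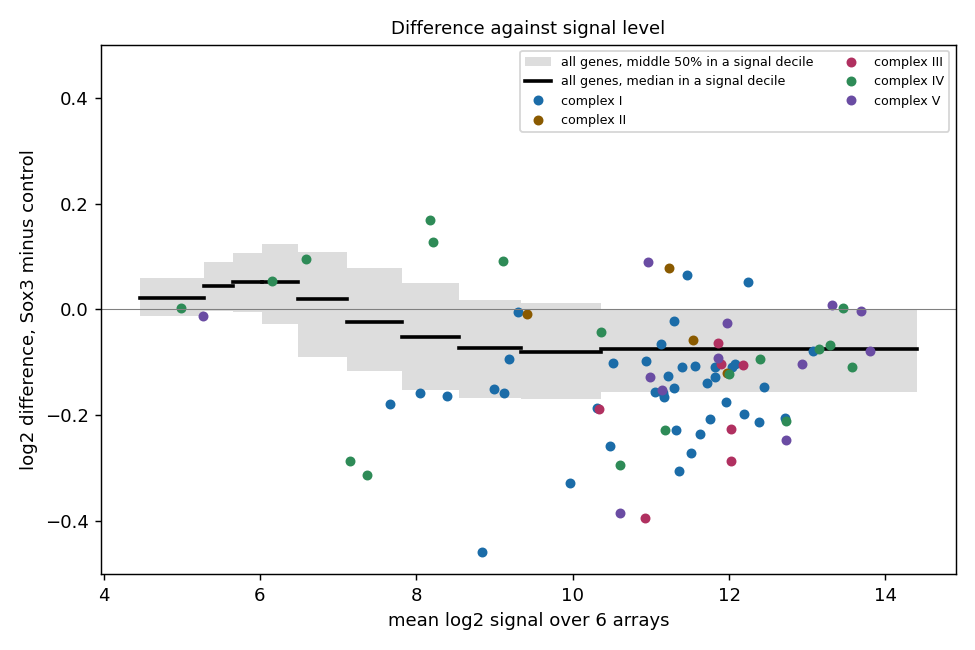
Log2 difference (Sox3 minus control) against mean log2 signal over 6 arrays, for the 81 genes by complex, over the median (black line) and middle 50% (grey) of all measured genes in each signal decile. The black line drops from 0.02 to 0.05 in the 5 dimmer deciles to -0.08 in the top decile, and most complex I and III points lie below it.

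Scaling that removes a trend with signal reduced the medians of all genes of this brightness. After cyclic loess the 81 genes had a median of -0.04 and the other bright genes 0.0043. After quantile normalisation of the deposited values these were -0.05 and -0.0017. The gap between the bright members and the other bright genes stayed near its main value, at -0.045 after cyclic loess and -0.048 after quantile normalisation. Of the 81 genes, 60 were below 0 after cyclic loess and 61 after quantile normalisation, against 69. Ndufa7 was the only call after cyclic loess, and Ndufa7 and Cox7a2l the calls after quantile normalisation. The median of complex II turned to 0.05 in both.

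The members varied together with particular arrays, and the other bright genes did so in much the same way. Sox3 replicate 1 was the lowest of the 6 arrays for 50 of the 81 genes (61.7%) and for 54.1% of the other bright genes. Control replicate 3 was the highest for 48 (59.3%) and for 57.4% of the other bright genes. As deviations from the mean of the 6 arrays, the members' medians were -0.13, -0.03 and -0.03 on Sox3 arrays 1 to 3 and 0.04, 0.02 and 0.12 on control arrays 1 to 3. Those of the other bright genes were -0.09, -0.02 and -0.0006 on the Sox3 arrays and 0.01, 0.004 and 0.10 on the control arrays. Sox3 replicate 1 and control replicate 3 were then both left out, a choice made after the values were seen. The median of the 81 genes was -0.06, 63 were below 0, none was called, and 19 had an unadjusted p under 0.05.

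**Figure D4:**
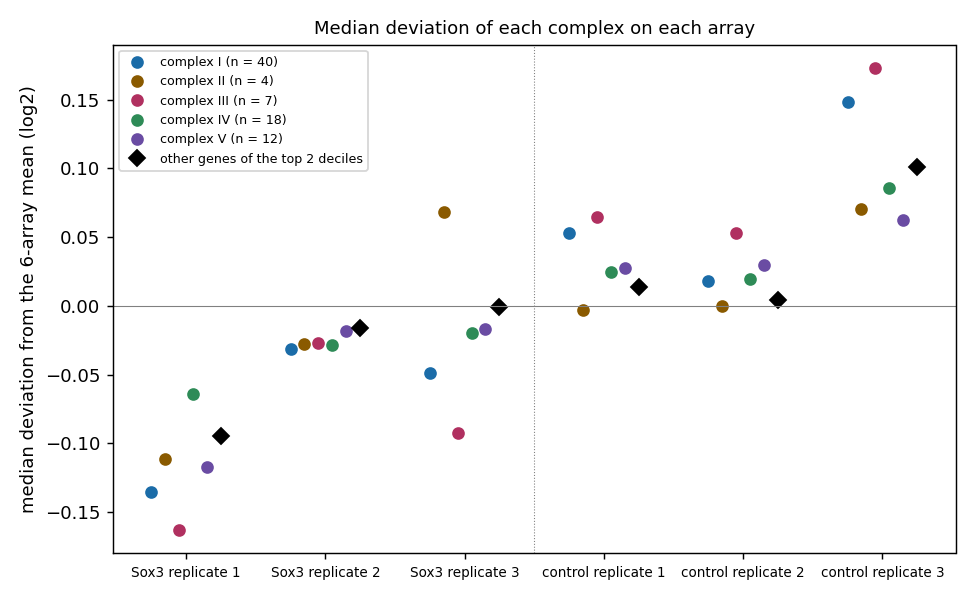
Median deviation from the 6-array mean (log2) of each complex on each array, with the other genes of the top 2 signal deciles as diamonds. Sox3 replicate 1 is lowest and control replicate 3 highest for most complexes, and the diamonds follow the same order, from -0.09 to 0.10.

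Lists of genes around the respiratory chain had medians below 0 and few calls, and each held genes on both sides of 0. Of 33 other assembly factors of the complexes, 1 fell (3.03%, against 2.67% of all genes) and none rose. Their median was -0.10, with 7 above 0. The gene that fell was Uqcc2, an assembly factor of complex III. Uqcc2 read 10.87, 10.97 and 10.79 in Sox3 cells and 11.28, 11.15 and 11.27 in control cells, a difference of -0.36 ± 0.06 (SE, limma adjusted p = 0.0275). Its groups do not overlap. The Uqcc2 call was lost when any 1 array but control replicate 2 was left out (limma adjusted p up to 0.1003) and after cyclic loess (limma adjusted p = 0.0589).

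Of 23 genes that control mitochondrial biogenesis or express mitochondrial DNA, 1 fell and none rose, with a median of -0.06, and 8 lay above 0 (3 above and 4 below 0 at an unadjusted p under 0.05). Polg2, the accessory subunit of the mitochondrial DNA polymerase, was at -0.35 ± 0.07 (SE, limma adjusted p = 0.0337). Its call was lost when any 1 array but control replicate 2 was left out (limma adjusted p up to 0.116). The transcription factors Nrf1 (0.01) and Gabpa (0.04), the nuclear receptor Esrra (0.16) and the mitochondrial transcription factor Tfam (-0.06) did not pass. Besides Polg2, the genes below 0 at an unadjusted p under 0.05 were Tefm (-0.32), Twnk (-0.19) and Pprc1 (-0.14). Those above were Esrrb (0.26), Ppargc1b (0.18) and Esrra. In each of these the groups did not overlap, and only Polg2 passed after adjustment.

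In limma none of 13 electron carriers and transporters passed the test (median -0.13, 4 below 0 and 1 above at an unadjusted p under 0.05), Slc25a31 and Etfb having the largest differences, both -0.35. None of 26 genes of the tricarboxylic acid cycle and pyruvate dehydrogenase passed (median -0.09, 5 below and 1 above at an unadjusted p under 0.05). Pdk3, a kinase that inhibits pyruvate dehydrogenase, was at -0.48 (limma adjusted p = 0.0503). None of 70 mitochondrial ribosome genes (median -0.08, 15 below and 2 above unadjusted), 25 cytosolic ribosome genes (median -0.07, 7 and 0) or 33 proteasome genes (median -0.06, 4 and 0) passed in limma. The groups did not overlap, with Sox3 below, in 21 of 70 (30%), 7 of 25 (28%) and 4 of 33 (12.1%) genes of these lists. The shares were 38.5% for carriers and transporters (5 of 13), 36.4% for other assembly factors (12 of 33), 30.8% for the tricarboxylic acid cycle list and 21.7% for the biogenesis list. They stand beside 50.6% of the oxidative phosphorylation genes, 18.3% of all genes and 32.5% of the other bright genes, with no test between lists.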

How the data were processed

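RNA was biotin-labelled and hybridised to Affymetrix arrays, per the labels' protocols. The deposited values are on the log2 scale. Per the submitters' processing notes, the authors used RMA and Affymetrix Power Tools, no version and no array type being given in the sources used here. RMA quantile-normalises probes between arrays. Of 21940 probe sets, 64 array controls were left out. The other 21876 were matched to a RefSeq gene table (GRCm38.p6) without version numbers, giving 1 symbol for 17123 and none for 4753. Where a gene had several probe sets, the one with the highest mean signal was taken. No member shares its values with another gene. The comparison was fitted in limma (version 3.58.1, under R 4.3.3) by lmFit and eBayes, two-sided, with Benjamini-Hochberg adjustment over all 21876 probe sets and a threshold of 0.05. The number of arrays limits the precision. The p-values of limma set each difference against the spread between samples within a group, moderated over all probe sets. They treat the samples as independent. Lists are described by counts and medians, beside genes of the same signal decile, without a list test. The members and lists were chosen with earlier results of these data known. The genes named are those called, the highest, lowest and brightest of each complex, core subunits, isoform sets, and up to 4 called genes of each other list, or the 2 with the largest differences; others were chosen after their values were seen. The replicate numbers were not taken as pairs. The values of 1 member are counted in the lists but not reported here by name. The procedure was tested on simulated data with independent noise. Those data held no shift of a whole array and no trend with signal, so the test does not bear on such features. Alternatives were quantile normalisation, median centring, cyclic loess, a replicate block, a filter at the 25th percentile of signal, distinct profiles, means over probe sets, limma-trend, array weights and leaving out each array.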

Additional observations from a re-analysis of the deposited data

How the results depend on the processing

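The direction of the median over all 81 genes, and of complexes I, III, IV and V, held under every alternative run; that of complex II did not. The number of members called lower was 5, and it was 2 after quantile normalisation, 3 after median centring, 1 after cyclic loess and 2 (Ndufv3 and Uqcr10) with the replicate block. Arrays with the same number had deviations that correlated at 0.29, -0.21 and 0.09. With 3 arrays per group these values cannot tell whether same-numbered samples shared a culture or sort, which the labels do not say. Leaving out 1 array in turn gave 0 to 2, and leaving out both Sox3 replicate 1 and control replicate 3, added after seeing the data, gave 0. No alternative called a member higher. Over all measured genes, 195 higher and 408 lower calls became 607 and 976 with array weights, 117 and 114 without both arrays, and 58 to 147 and 66 to 215 without 1 array, and the higher calls 297 after quantile normalisation. The median over the members, -0.12, was -0.051 after quantile normalisation, -0.042 after cyclic loess and -0.063 without both arrays. In the same order, complex I moved from -0.15 to -0.084, -0.075 and -0.085, complex II from -0.033 to 0.047, 0.047 and 0.043, complex III from -0.19 to -0.12, -0.10 and -0.086, and complex IV from -0.071 to -0.034, -0.00853 and -0.034. Complex V moved from -0.085 to -0.042, -0.019 and -0.047. With array weights the members were at -0.078, complex I at -0.103, complex III at -0.095 and complex IV at -0.041. Complex IV was at -0.047 without control replicate 3, and at -0.10 without its tissue-restricted isoforms. Leaving out 1 array gave -0.089 to 0.018 for complex II and -0.24 to -0.11 for complex III. Cyclic loess removes, by its construction, a difference that follows signal; the cause of the other changes was not tested. With no detection call and 3 arrays per group, dim genes such as Cox7b2 and Atp5g1 have no stated detection limit.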

Other observations

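Of the 5 genes that fell, 3 (Ndufa7, Ndufv3 and Cox7a2l) lie on chromosome 17, a feature seen after the values were known. Of the 81 measured genes 6 lie there, the others being Ndufb10, Ndufv2 and Ndufaf7. All 6 were below 0, with a median difference of -0.28. In 5 the Sox3 arrays lay below all control arrays, which held for 18.3% of all genes and 32.5% of the other bright genes. The 130 other genes of chromosome 17 in the top 2 signal deciles had a median of -0.09, with 3.08% called lower. Ndufa7 and Ndufaf7 are dimmer than those deciles, so the comparison is not of like signal for them. No test was made of the chromosome.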
